A study of Homo sapiens with 12 samples.

Results

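The tricarboxylic acid (TCA) cycle genes and the genes of the pyruvate dehydrogenase complex were examined in K562 cells in which the deubiquitinase USP7 had been inhibited. The 32 members were listed by name, as enzymes of the cycle, subunits and regulators of pyruvate dehydrogenase, and enzymes that feed the cycle or shuttle its intermediates, and were matched by Ensembl identifier to symbols of GENCODE release 44. All 32 were found among the 60609 genes of the count files, and 29 of them were among the 13895 genes that passed the filter on low counts. The 3 that did not pass were PDK3, PDK4 and ME3. K562 is an established human leukemia cell line that carries erythroid features, and the compound FT671 inhibits USP7. Of its 12 samples, the series had 3 RNA-seq libraries of K562 cells treated with DMSO, the solvent control, and 3 of cells treated with 10 μM FT671, both for 48 h. The paper describes the 3 replicates as independent experiments. The values were read counts per gene from ribosome-depleted total RNA, given here as CPM, a gene's count relative to the TMM-scaled size of its library. The comparison of FT671 with DMSO asks which of these metabolic genes changed in expression when USP7 was inhibited.

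The TCA cycle oxidizes the acetyl group of acetyl-CoA to carbon dioxide in the mitochondrial matrix and passes the electrons to the respiratory chain. Pyruvate from glycolysis enters as acetyl-CoA through the pyruvate dehydrogenase complex, which kinases (PDK) switch off by phosphorylation and phosphatases (PDP) switch on again. Pyruvate carboxylase, malic enzymes and glutamate dehydrogenase add or remove intermediates, and the malate-aspartate shuttle carries reducing equivalents across the inner mitochondrial membrane.

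The libraries held between 4555220 and 14250500 counts, and a detection limit of 3 counts, which considers counting error alone, ranged from 0.208 to 0.666 CPM over them. Mitochondrially encoded genes took 2.59% to 2.82% of the counts in DMSO libraries and 1.47% to 1.76% after FT671. Of 10 markers of erythroid K562 cells none was at 0, and their summed expression was 1400 to 1423 CPM in DMSO and 1101 to 1139 CPM after FT671, with 2 higher and 7 lower at an adjusted p of 0.05. The summed levels in DMSO and after FT671 were 17.0 to 20.5 and 24.0 to 29.3 CPM for 5 T cell markers (CD2 and CD28 at 0; 1 higher), 2.03 to 3.94 and 2.86 to 3.998 CPM for 5 B cell markers (MS4A1 at 0), and 58.8 to 62.9 and 76.4 to 79.4 CPM for 5 monocyte markers (1 higher and 1 lower). They were 586 to 711 and 745 to 773 CPM for 5 epithelial markers (2 higher), and 2.38 to 3.05 and 2.59 to 2.89 CPM for 5 fibroblast markers (COL3A1 at 0). The B cell and fibroblast sums overlapped between the groups, whereas the erythroid, T cell, monocyte and epithelial sums and the mitochondrially encoded share moved with the treatment, and their part in the results was not tested. All libraries were of the K562 line. CD3D made most of the T cell sum (18.3 CPM on average in DMSO) and LYZ most of the monocyte sum (52.7 CPM). CPM are shares of a library, so that a change in the share of cells in a given state and a change in their RNA per cell cannot be told apart.

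Most of the tested members were more highly expressed after FT671. In edgeR's quasi-likelihood test, adjusted by the Benjamini-Hochberg method over all genes tested, 18 of the 29 rose (62.1%) and 4 fell (13.8%) at an adjusted p of 0.05. Over all genes tested, 23.6% were higher and 26.5% were lower at this threshold. The middle log2 fold change (median) among the 29 was 0.25, while that over all genes tested was −0.010. PDK2, IDH3B and PDHA1 had the largest rises, and IDH1, PDP1 and OGDH the largest falls. The paper's methods applied a stricter adjusted p of 1e-05 to DESeq2 results. At this threshold in edgeR, IDH3B and PDHA1 were higher and IDH1 was lower, where 1.79% of all genes tested were higher and 4.13% lower. With the DESeq2 Wald test, 6 members were higher and 2 lower at 1e-05, and the share over all genes is not given for that test. Every FT671 library lay above every DMSO library for 20 of the 29 genes and below it for 3, compared with 26.8% and 30.3% of all genes tested. The summed expression of the 32 members was 3692 to 3764 CPM in the DMSO libraries and 4424 to 4558 CPM in the FT671 libraries.

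The number of falls was less stable than the number of rises. It was 2 when DMSO replicate 1, DMSO replicate 2, FT671 replicate 2 or FT671 replicate 3 was left out. Over all genes tested, 3176 of 13301, 3284 of 13321, 3195 of 14917 and 2972 of 13315 were lower there, in the same order. The main fit had 3687 of 13895, so that falls were also fewer over all genes in these runs. Each of these runs had 14 rises, against 18 in the main fit, while 18.4% to 21.3% of all genes tested were higher. The number of falls was also 2 with DESeq2's size factors, with 18 rises. Rises thus made up 81.8% of the calls in the main fit and 90.0% with those factors. At 1e-05, the number of rises was 6 without DMSO replicate 3 and 1 without FT671 replicate 3. The number of falls at 1e-05 was 2 without DMSO replicate 3 and 0 without any one of the FT671 replicates. The shares over all genes at 1e-05 are not given for these runs, so that these counts cannot be set beside them. Against counting error over the genes, DMSO replicate 3 had a chi-square per degree of freedom of 7.55 with DMSO replicate 1 and 8.73 with DMSO replicate 2. It was 2.94 between DMSO replicates 1 and 2, and 2.07 to 3.2 between FT671 libraries. The part of this difference in the changed calls was not tested.

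**Figure D1:**
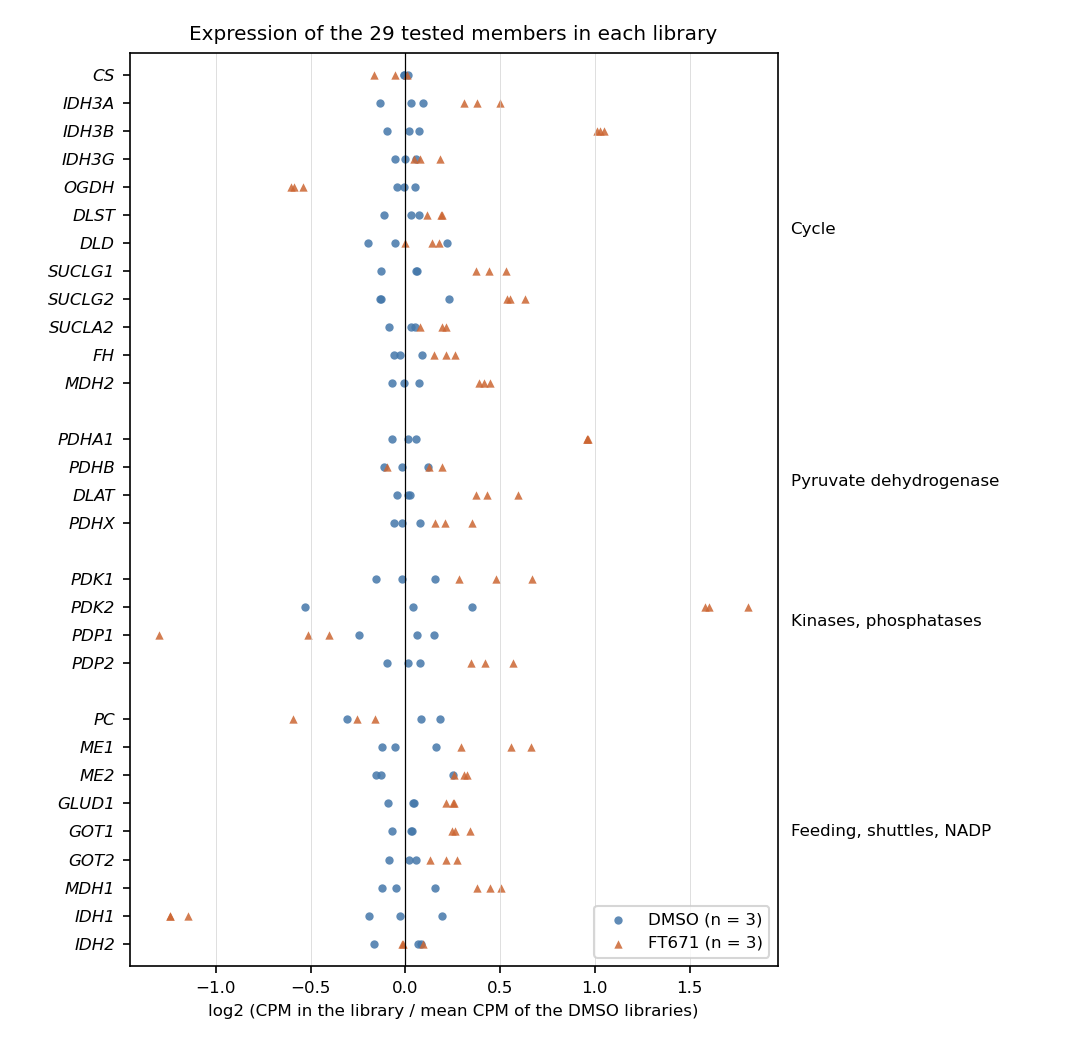
Each point is the CPM of 1 library divided by the mean CPM of the DMSO libraries, on a log2 axis, for the 29 tested members grouped by role (circles, DMSO; triangles, FT671; 3 libraries each). The FT671 libraries lie to the right of the DMSO libraries for 20 genes and to the left for 3, with PDK2, IDH3B and PDHA1 farthest right and IDH1 farthest left on average.

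The promoter sequences below are shown because subunits of the same enzyme differed in their change after FT671, and because PDK2 had the largest log2 fold change of the members. Promoters of 30 of the 32 members were matched in RefSeq (GRCh38.p14), leaving OGDH and PDP1. Each is the 250 bases before the RefSeq start, 5′ to 3′ on the strand of the gene, with the letters of a searched motif in capitals. The windows are chr20:2664217-2664466 (minus strand) for IDH3B, chrX:153794376-153794625 (minus strand) for IDH3G, chrX:19343677-19343926 (plus strand) for PDHA1, chr3:58433833-58434082 (minus strand) for PDHB and chr17:50094487-50094736 (plus strand) for PDK2. For the first 4 genes GENCODE places the outermost start of the gene farther upstream, so that 3, 137, 34 and 25 of these bases, in the same order, lie within the annotated gene, and none does for PDK2. The window of IDH1 is not printed because it lies wholly within the gene that GENCODE annotates.
IDH3B: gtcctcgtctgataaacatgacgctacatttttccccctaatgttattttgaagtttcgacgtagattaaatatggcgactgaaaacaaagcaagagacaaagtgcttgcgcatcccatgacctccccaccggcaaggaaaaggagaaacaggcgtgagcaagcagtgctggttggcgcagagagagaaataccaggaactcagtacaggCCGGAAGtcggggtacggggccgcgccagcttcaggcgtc
IDH3G: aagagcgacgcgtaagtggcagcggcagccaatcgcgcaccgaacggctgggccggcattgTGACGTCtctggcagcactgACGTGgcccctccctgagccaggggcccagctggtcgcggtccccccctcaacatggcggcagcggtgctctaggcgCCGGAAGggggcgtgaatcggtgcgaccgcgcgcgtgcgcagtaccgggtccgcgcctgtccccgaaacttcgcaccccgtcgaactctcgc
PDHA1: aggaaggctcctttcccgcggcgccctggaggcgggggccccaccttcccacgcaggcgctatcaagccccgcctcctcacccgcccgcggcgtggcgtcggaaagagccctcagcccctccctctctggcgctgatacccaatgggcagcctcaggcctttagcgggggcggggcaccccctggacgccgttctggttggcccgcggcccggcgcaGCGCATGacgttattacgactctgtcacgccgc
PDHB: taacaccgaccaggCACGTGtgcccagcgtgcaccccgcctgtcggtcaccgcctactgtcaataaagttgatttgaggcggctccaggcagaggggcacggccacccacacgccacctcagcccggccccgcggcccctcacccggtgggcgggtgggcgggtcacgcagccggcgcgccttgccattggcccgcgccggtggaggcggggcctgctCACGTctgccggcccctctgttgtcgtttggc
PDK2: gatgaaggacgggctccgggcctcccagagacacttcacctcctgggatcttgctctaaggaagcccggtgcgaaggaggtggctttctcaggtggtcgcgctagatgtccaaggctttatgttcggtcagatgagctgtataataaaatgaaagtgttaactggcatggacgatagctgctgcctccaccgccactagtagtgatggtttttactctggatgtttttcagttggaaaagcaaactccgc

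The motifs searched on both strands were GCGCATG (NRF1), CCGGAAG (ETS factors such as GABP), CACGTG (E-box), ACGTG (core of the hypoxia response element, contained in the E-box), TGACGTC (CRE) and AAGATGG (YY1). In this window the ETS letters stood in 5 of 30 member promoters (16.7%) and in 8.82% of 27305 promoters of the same length. The ETS letters were found in IDH3B, IDH3G, MDH2, DLST and ME2. The NRF1 letters were in the promoter of PDHA1 alone among the members (3.33%, against 3.96% of all promoters). The E-box was in 10.0% of the member promoters and 6.49% of all, the shorter ACGTG in 30.0% and 18.7%, and the CRE in 3.33% and 3.29%. AAGATGG was in 0 of 30 member promoters and in 3.77% of all. With the 50 bases after the start included, AAGATGG stood in 3 member promoters (10.0%, against 6.06% of all) and the counts of the other motifs in members were the same. Of the promoters printed above, IDH3B has the ETS letters starting 40 bases before the start and IDH3G has them at 92 bases, and none of the motifs stands in that of PDK2. These are matches of letters and were not measured as binding sites.

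Within the cycle, 6 of 12 genes rose (50%, against 23.6% of all genes tested), 1 fell (8.33%, against 26.5%) and 5 did not pass 0.05. The NAD-dependent isocitrate dehydrogenase, which converts isocitrate to 2-oxoglutarate, is built of subunits encoded by IDH3A (the catalytic subunit), IDH3B and IDH3G. IDH3B (ENSG00000101365, chromosome 20 from 2658395 to 2664219 in hg38) had 116, 120.3 and 107 CPM in DMSO replicates 1, 2 and 3, and 237, 233 and 231 CPM in FT671 replicates 1, 2 and 3. All FT671 libraries were far above all DMSO libraries, with means of 114 ± 6.75 and 233.5 ± 3.09 CPM (SD, n = 3 each). This was a 2.04-fold rise, or 1.025 on the log2 scale with a standard error of 0.072 (adjusted p = 1.33e-07 from edgeR). IDH3A rose less, from 67.0, 75.2 and 78.4 CPM to 95.7, 91.3 and 104 CPM (log2 fold change 0.41, adjusted p = 0.00146 from edgeR). IDH3A overlaps ACSBG1 on the opposite strand over 2608 exonic bases, and the log2 fold change of ACSBG1 was 0.45. IDH3G had 77.7, 74.7 and 71.9 CPM in DMSO and 77.3, 84.98 and 78.8 CPM after FT671, and these groups overlap. Its log2 fold change of 0.10 (standard error 0.0803) had an adjusted p of 0.317 from edgeR, and it passed 0.05 with a correction for GC content (0.19, adjusted p = 0.0386). IDH3G overlaps SSR4 on the opposite strand over 267 exonic bases. SSR4 had a log2 fold change of 0.36 at 178 CPM on average over the 6 libraries. As a ratio of counts within a library, which does not depend on scaling, IDH3B to IDH3G was 1.49, 1.61 and 1.49 in DMSO and 3.06, 2.75 and 2.93 after FT671. This ratio was chosen after its values were seen and was not tested.

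Succinyl-CoA ligase pairs the common subunit SUCLG1 with either SUCLG2, which gives the GTP-forming enzyme, or SUCLA2, which gives the ATP-forming one. SUCLG1 rose from 113, 113 and 99.1 CPM to 140.1, 147 and 156 CPM (log2 fold change 0.45, adjusted p = 3.90e-04 from edgeR). SUCLG2 rose from 38.2, 38.4 and 49.2 CPM to 60.9, 61.3 and 64.9 CPM (log2 fold change 0.60, adjusted p = 4.18e-04 from edgeR). For both genes every FT671 library was above every DMSO library. SUCLA2 had 15.7 to 17.2 CPM in DMSO and 17.6 to 19.3 CPM after FT671, a log2 fold change of 0.17 (standard error 0.118) that did not pass 0.05 (adjusted p = 0.249 from edgeR). With the gene length correction SUCLA2 passed, at 0.30 (adjusted p = 0.0431 from edgeR). The ratio of SUCLG2 to SUCLA2 counts was 2.21, 2.45 and 2.88 in DMSO and 3.45, 3.17 and 3.403 after FT671. The groups did not overlap, with a difference of 0.42 on the log2 scale (two-sided exact permutation test, p = 0.1, the smallest that 3 libraries against 3 allow, and adjusted p = 0.2 over 6 pairs).

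MDH2, the mitochondrial malate dehydrogenase that closes the cycle, had the highest level of the members per kilobase of annotated exon, 231 ± 11.5 CPM per kilobase in DMSO and 309 ± 6.42 after FT671 (SD, n = 3 each). Its expression rose from 838, 885 and 802 CPM to 1102, 1122 and 1148 CPM (log2 fold change 0.42, adjusted p = 1.65e-04 from edgeR). Fumarase (FH), which makes malate from fumarate, rose from 166, 169.5 and 184 CPM to 192, 201 and 208 CPM, a small increase (log2 fold change 0.21, adjusted p = 0.0233 from edgeR). FH lost its call when DMSO replicate 1, DMSO replicate 2, FT671 replicate 2 or FT671 replicate 3 was left out (adjusted p = 0.11, 0.0576, 0.0817 and 0.105 from edgeR). It also lost it with library totals alone (adjusted p = 0.0502) and without the filter (adjusted p = 0.159), and its value was 0.36 with the gene length correction. Citrate synthase (CS), which makes the first intermediate of the cycle, had 245, 248 and 245 CPM in DMSO and 219, 237 and 247 CPM after FT671. Its log2 fold change was −0.067 (standard error 0.070, adjusted p = 0.445 from edgeR), with overlapping groups, and the sign turned with the gene length correction (0.050).

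The 2-oxoglutarate dehydrogenase complex, which makes succinyl-CoA, consists of OGDH (E1), DLST (E2) and DLD (E3, shared with pyruvate dehydrogenase). OGDH (ENSG00000105953, chromosome 7 from 44606572 to 44709066) was the one cycle gene that fell. It had 215.5, 229.6 and 220.5 CPM in DMSO and 153, 146 and 148 CPM after FT671, with no overlap between groups (log2 fold change −0.58 with a standard error of 0.0686, adjusted p = 1.22e-05 from edgeR). DLST had 57.3 to 65.2 CPM in DMSO and 67.1 to 70.7 CPM after FT671, which did not overlap but did not pass 0.05 (log2 fold change 0.16, adjusted p = 0.131 from edgeR). DLST did pass with the gene length correction (0.22, adjusted p = 0.0388 from edgeR) and the GC correction (0.25, adjusted p = 0.00747 from edgeR). DLD ranged from 133 to 177 CPM in DMSO and from 152 to 172.5 CPM after FT671 (log2 fold change 0.12, adjusted p = 0.337 from edgeR), and the highest DMSO value was that of replicate 3. Without DMSO replicate 3 the log2 fold change of DLD was 0.23 (adjusted p = 0.00651 from edgeR). DLD overlaps LAMB1 on the opposite strand over 300 exonic bases, and the log2 fold change of LAMB1 was −0.33. The ratio of OGDH to DLST counts was 3.31, 3.63 and 3.85 in DMSO and 2.28, 2.07 and 2.09 after FT671, a description chosen after the values were seen.

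Of the 4 genes listed here under pyruvate dehydrogenase, 3 rose (75%, against 23.6% of all genes tested) and PDHB did not pass 0.05. The shared E3 subunit DLD was counted with the cycle and did not pass either (log2 fold change 0.12, adjusted p = 0.337 from edgeR). PDHA1 (ENSG00000131828, chromosome X from 19343893 to 19361718), which encodes the E1α subunit that is phosphorylated by the kinases, had 123.4, 135 and 131 CPM in DMSO. After FT671 it had 253, 252 and 252 CPM, so that the 3 treated libraries were nearly equal and all about 1.95-fold above DMSO (log2 fold change 0.96 with a standard error of 0.0692, adjusted p = 1.50e-07 from edgeR). PDHA1 overlaps MAP3K15 on the opposite strand over 956 exonic bases, and MAP3K15 had a log2 fold change of 0.74 at 13.3 CPM on average over the 6 libraries. PDHB, the E1β subunit that forms a heterotetramer with E1α, had 35.0, 38.5 and 32.7 CPM in DMSO and 33.1, 38.6 and 40.4 CPM after FT671. These groups overlap, and the log2 fold change was 0.084 (standard error 0.109, adjusted p = 0.544 from edgeR). The count ratio of PDHA1 to PDHB was 3.53, 3.50 and 3.99 in DMSO and 7.65, 6.53 and 6.25 after FT671, again a ratio chosen after the values were seen and not tested. DLAT, the E2 core with its lipoyl arms, rose from 186, 178 and 185 CPM to 237, 276 and 247 CPM (log2 fold change 0.47, adjusted p = 1.57e-04 from edgeR). PDHX, which binds E3 to the core, had 81.3 to 89.5 CPM in DMSO and 94.6 to 108 CPM after FT671 (log2 fold change 0.25, adjusted p = 0.0217 from edgeR). The call for PDHX was lost without DMSO replicate 1, DMSO replicate 2, FT671 replicate 2 or FT671 replicate 3 (adjusted p = 0.1, 0.0517, 0.135 and 0.0513 from edgeR).

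The 4 kinase genes and 2 phosphatase genes act on E1α. Of these 6 genes, 4 were tested, of which 3 rose (75%, against 23.6% of all genes tested) and 1 fell (25%, against 26.5%). Of the kinases, PDK1 and PDK2 passed the filter and both rose. PDK2 (ENSG00000005882, chromosome 17 from 50094737 to 50112152) had 4.78, 3.85 and 2.59 CPM in DMSO, from 69, 42 and 14 counts, and 13.1, 11.4 and 11.2 CPM after FT671, from 59, 63 and 125 counts. This was the largest log2 fold change of the members, 1.56 (standard error 0.198, adjusted p = 2.19e-05 from edgeR), or 2.95-fold, at one of the lowest levels. PDK2 overlaps SAMD14 on the opposite strand over 2113 exonic bases, and SAMD14 rose by 1.58 on the log2 scale (from 1.33 to 4.12 CPM on average). Since the strand setting of the counting is not given in the sources used here, reads of such overlapping genes cannot be told apart. PDK1, known as a hypoxia-inducible kinase, rose from 30.9, 28.0 and 34.8 CPM to 38.0, 49.6 and 43.4 CPM (log2 fold change 0.50, adjusted p = 0.00301 from edgeR). PDK3 had 7, 6 and 2 counts in DMSO and 0, 2 and 3 after FT671. PDK4, known for its induction by fasting, had 1, 1 and 5 counts in DMSO and 0, 1 and 0 after FT671. Neither gene passed the filter, so that no test was run. In CPM, PDK3 had 0.485, 0.550 and 0.370 in DMSO and 0, 0.361 and 0.268 after FT671. Every FT671 library was thus below every DMSO library for PDK3, while the groups overlapped for PDK4. Counts this low are too few to judge a difference for either gene.

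Per kilobase of exon, PDK1 made up 69.4%, 71.4% and 77.0% of the kinase level in the DMSO libraries and 51.6%, 61.0% and 58.7% in the FT671 libraries. PDK2 made up 29.1%, 26.6% and 15.6% and then 48.4%, 37.9% and 41.0%. The counts of PDK1 exceeded those of PDK2 by 6.42, 7.21 and 13.0 times in DMSO and by 2.88, 4.34 and 3.88 times after FT671. This ratio fell without overlap by 1.21 on the log2 scale, with p = 0.1 (two-sided exact permutation test) and an adjusted p of 0.2. Of the phosphatases, PDP2 rose from 28.5, 26.4 and 29.8 CPM to 37.8, 41.9 and 35.9 CPM (log2 fold change 0.45, adjusted p = 0.00290 from edgeR). PDP1 fell from 4.57, 4.86 and 3.70 CPM to 1.78, 3.07 and 3.31 CPM, from 8, 17 and 37 counts after FT671 (log2 fold change −0.64 with a standard error of 0.249, adjusted p = 0.0463 from edgeR). The call for PDP1 was lost when any one library other than DMSO replicate 3 was left out, with log2 fold changes of −0.62 and −0.56 without DMSO replicates 1 and 2 and −0.47, −0.67 and −0.85 without FT671 replicates 1, 2 and 3. The ratio of PDP1 to PDP2 counts was 0.161, 0.185 and 0.127 in DMSO and 0.0499, 0.0753 and 0.0932 after FT671, given without a test because of the low counts of PDP1.

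**Figure D2:**
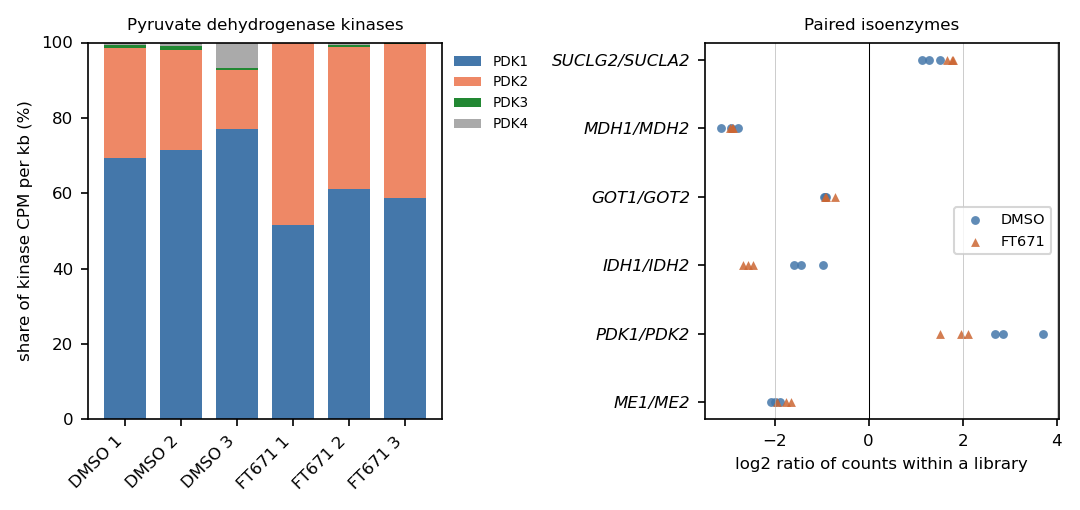
Left, share of each pyruvate dehydrogenase kinase in the summed CPM per kilobase of exon in each of the 6 libraries. Right, log2 ratio of counts within a library for the 6 isoenzyme pairs with at least 10 counts throughout. The PDK2 share is 15.6% to 29.1% in DMSO and 37.9% to 48.4% after FT671, and the ratios IDH1/IDH2, PDK1/PDK2 and SUCLG2/SUCLA2 separate the groups.

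Among the 10 enzymes that feed the cycle or work in its shuttles, 9 were tested, of which 6 rose (66.7%, against 23.6% of all genes tested) and 2 fell (22.2%, against 26.5%). IDH1 (ENSG00000138413, chromosome 2 from 208236229 to 208266074), the cytosolic and peroxisomal NADP-dependent isocitrate dehydrogenase, had the largest fall. It had 104, 93.0 and 121 CPM in DMSO and 44.9, 48.0 and 44.9 CPM after FT671, so that each treated library lay far below each control (log2 fold change −1.20 with a standard error of 0.102, adjusted p = 6.05e-07 from edgeR). Expression was 0.435-fold that in DMSO. IDH2, its mitochondrial counterpart, had 283, 281 and 239 CPM in DMSO and 286, 264 and 265 CPM after FT671, with overlapping groups (log2 fold change 0.017 with a standard error of 0.0791, adjusted p = 0.873 from edgeR). The sign of the IDH2 value turned with library totals alone, without the filter, with the gene length correction, without DMSO replicate 3 and without FT671 replicate 1. The ratio of IDH1 to IDH2 counts was 0.367, 0.331 and 0.507 in DMSO and 0.157, 0.182 and 0.169 after FT671, a fall by 1.22 on the log2 scale (two-sided exact permutation test, p = 0.1, adjusted p = 0.2).

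The enzymes of the malate-aspartate shuttle are cytosolic and mitochondrial malate dehydrogenases and aspartate aminotransferases. MDH1, the cytosolic malate dehydrogenase, rose from 122, 100.1 and 106 CPM to 142, 149 and 155 CPM (log2 fold change 0.44, adjusted p = 6.71e-04 from edgeR). GOT1, the cytosolic aminotransferase, rose from 139, 140.1 and 130.1 CPM to 164, 173 and 162 CPM (log2 fold change 0.28, adjusted p = 0.00486 from edgeR). GOT2, the mitochondrial aminotransferase, rose from 264, 270.5 and 245 CPM to 314, 284 and 302 CPM (log2 fold change 0.21, adjusted p = 0.0273 from edgeR). All 4 shuttle enzymes, MDH2 included, thus had every FT671 library above every DMSO library, as did 26.8% of all genes tested. Of 5 tested carriers of malate, aspartate and dicarboxylates, 1 rose and 1 fell (20% each, against 23.6% and 26.5% of all genes tested). GOT2 lost its call without DMSO replicate 1, FT671 replicate 1 or FT671 replicate 3 (adjusted p = 0.0646, 0.102 and 0.0826 from edgeR). The ratio of GOT1 to GOT2 differed by 0.077 on the log2 scale (standard error 0.0687; two-sided exact permutation test, p = 0.4, adjusted p = 0.48). The ratio of MDH1 to MDH2 differed by 0.030 (standard error 0.107; exact permutation test, p = 0.8, adjusted p = 0.8) and by −0.067 without DMSO replicate 2. With 3 libraries against 3 these tests could not go below 0.1.

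The malic enzymes convert malate to pyruvate. ME1, the cytosolic NADP-dependent form, rose from 16.6, 15.8 and 19.2 CPM to 21.1, 27.2 and 25.3 CPM (log2 fold change 0.55, adjusted p = 0.00286 from edgeR). ME2, the mitochondrial NAD-dependent form, had 61.6, 62.8 and 81.7 CPM in DMSO and 82.0, 85.2 and 86.2 CPM after FT671 (log2 fold change 0.32, adjusted p = 0.0210 from edgeR). DMSO replicate 3 was the highest control for both genes. ME2 lost its call without DMSO replicate 1, DMSO replicate 2, FT671 replicate 2 or FT671 replicate 3 (adjusted p = 0.119, 0.078, 0.0684 and 0.0819 from edgeR). The ratio of ME1 to ME2 differed by 0.20 on the log2 scale with overlapping groups (two-sided exact permutation test, p = 0.2, adjusted p = 0.3). ME3, the mitochondrial NADP-dependent form, had 0 counts in all 6 libraries, which allows a level of up to 0.208 CPM in the deepest library.

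GLUD1, glutamate dehydrogenase, which makes 2-oxoglutarate from glutamate, rose from 94.3, 86.0 and 94.6 CPM to 109, 109.5 and 106.5 CPM (log2 fold change 0.24, adjusted p = 0.0158 from edgeR). Its call was lost without DMSO replicate 2, FT671 replicate 2 or the filter (adjusted p = 0.065, 0.0655 and 0.123 from edgeR), its value was 0.40 with the gene length correction, and its pseudogene GLUD1P3 held 4.66 CPM on average over the 6 libraries. Pyruvate carboxylase (PC), which makes oxaloacetate from pyruvate, had 48.5, 52.0 and 37.2 CPM in DMSO and 41.1, 30.5 and 38.4 CPM after FT671. These groups overlap, and the fall only just passed 0.05 (log2 fold change −0.34 with a standard error of 0.135, adjusted p = 0.0487 from edgeR). With the gene length correction the value of PC was −0.23 (adjusted p = 0.187 from edgeR). PC did not pass either with DESeq2's size factors (adjusted p = 0.0624), the GC correction (adjusted p = 0.0603), the DESeq2 Wald test (adjusted p = 0.0733), nor without DMSO replicate 1, DMSO replicate 2, FT671 replicate 2 or FT671 replicate 3 (adjusted p = 0.136, 0.201, 0.227 and 0.0895 from edgeR). PC overlaps LRFN4 on the opposite strand over 621 exonic bases, and LRFN4 fell by 0.96 on the log2 scale.

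**Figure D3:**
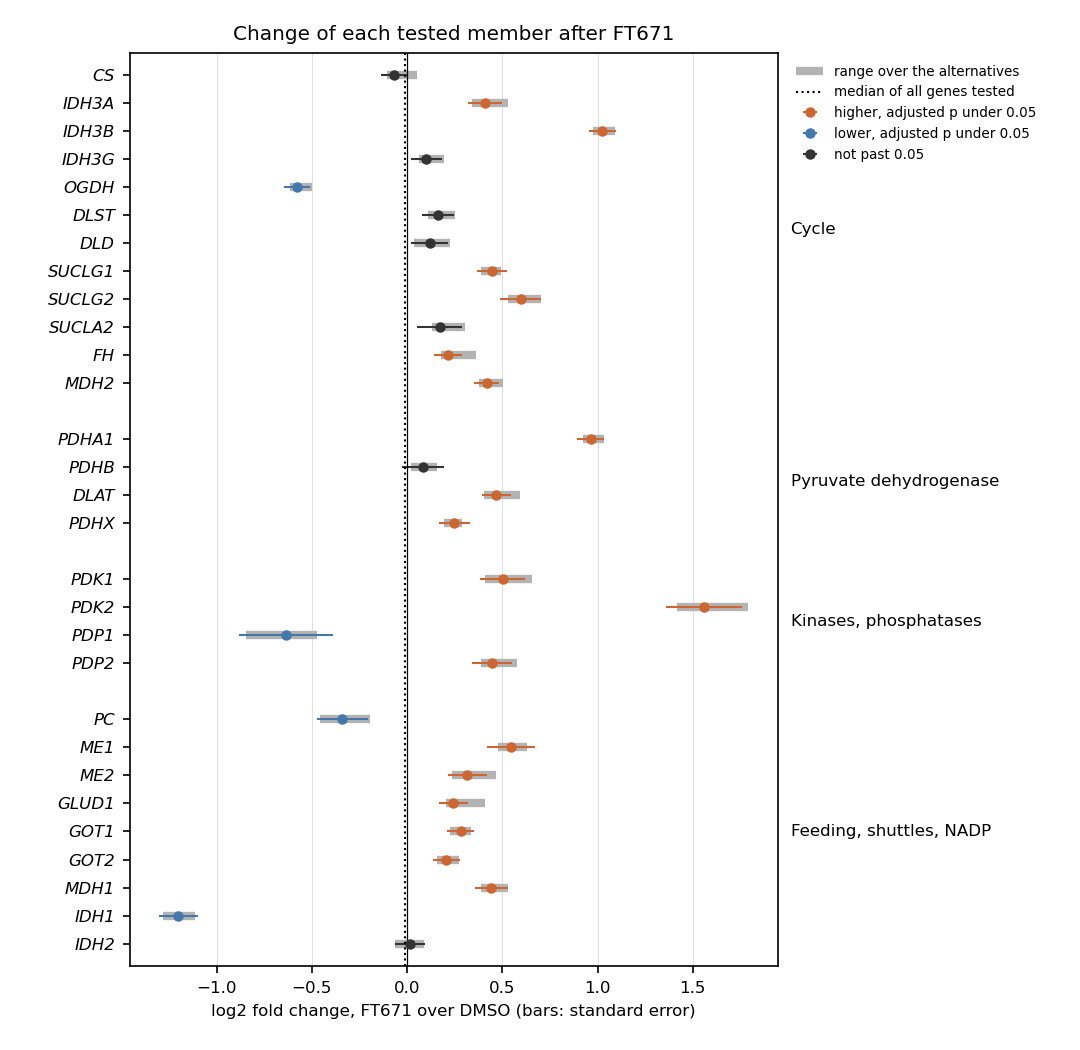
Log2 fold change (FT671 over DMSO) of the 29 tested members with its standard error, from edgeR on 3 libraries per group. Color marks the call at an adjusted p of 0.05, the gray bar spans the values under the alternatives, and the dotted line is the median over all genes tested (−0.010). The 18 genes called higher range up to 1.56 (PDK2) and the 4 called lower down to −1.20 (IDH1).

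In DMSO, the order of levels per kilobase of annotated exon after MDH2 was IDH2 (96.0 ± 8.91), GOT2 (69.2 ± 3.53), GOT1 (56.3 ± 2.29), IDH3B (44.6 ± 2.63), OGDH (42.6 ± 1.37) and CS (38.4 ± 0.297 CPM per kilobase; SD, n = 3 each). IDH3B and OGDH do not differ beyond their spread in this order, nor do DLD (29.9 ± 4.42), IDH3G (27.7 ± 1.07), PDHA1 (26.2 ± 1.14) and SUCLG1 (26.0 ± 1.90). After FT671, IDH3B moved from rank 5 to rank 3 (91.0 ± 1.20), beyond GOT2 and GOT1, and PDHA1 from rank 10 to rank 6 (51.0 ± 0.121). OGDH moved from rank 6 to rank 13 (28.6 ± 0.674) and IDH1 from rank 14 to rank 19 (9.77 ± 0.384). Exon lengths pool all annotated transcripts of a gene, so that levels of genes with long minor transcripts are understated.

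A further 45 genes of neighboring steps were listed by name, and 40 of them were tested, of which 17 rose (42.5%) and 4 fell (10.0%) at an adjusted p of 0.05, against 23.6% and 26.5% of all genes tested. The counts were 11 and 1 without FT671 replicate 3, where 18.9% of all genes tested were higher and 2972 of 13315 were lower. The number of falls was 1 without DMSO replicate 1 and 2 without DMSO replicate 2 or FT671 replicate 2. In those runs 3176 of 13301, 3284 of 13321 and 3195 of 14917 genes tested were lower, in the same order, against 3687 of 13895 in the main fit. In the list that holds succinate dehydrogenase, its assembly factors and the remaining enzymes of the cycle, 4 of 10 rose (40.0%, against 23.6% of all genes tested) and 2 fell (20%, against 26.5%). SDHB, the iron-sulfur subunit of succinate dehydrogenase, rose from 191, 198 and 165 CPM to 261, 255 and 247 CPM (log2 fold change 0.46, adjusted p = 2.67e-04 from edgeR). SDHD, a membrane anchor of the same enzyme, had 6.30, 6.41 and 14.8 CPM in DMSO and 15.8, 20.03 and 15.3 CPM after FT671 (log2 fold change 1.022, adjusted p = 0.00446 from edgeR), with DMSO replicate 3 apart from the other controls. The assembly factors SDHAF2 and SDHAF1 fell by 1.36 (adjusted p = 4.99e-04 from edgeR) and by 0.51 (adjusted p = 0.0128 from edgeR) on the log2 scale.

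Of the genes for lipoate and thiamine cofactors and for pyruvate import, 2 of 9 tested rose (22.2%), a share close to the 23.6% of all genes tested, and the others did not pass 0.05. The mitochondrial pyruvate carrier genes MPC2 and MPC1 were those that rose, MPC2 by 0.31 (adjusted p = 0.00326 from edgeR) and MPC1 by 0.22 (adjusted p = 0.0458 from edgeR) on the log2 scale. Among genes that use citrate, acetate or glutamate, 6 of 9 tested rose (66.7%, against 23.6% of all genes) and the others did not pass 0.05. ATP citrate lyase (ACLY), which makes cytosolic acetyl-CoA from citrate, rose from 412, 413.5 and 428.5 CPM to 658, 628 and 645 CPM (log2 fold change 0.62, adjusted p = 3.62e-06 from edgeR). The citrate carrier SLC25A1 rose from 518, 505 and 424 CPM to 810.2, 782 and 769 CPM (log2 fold change 0.70, adjusted p = 8.24e-06 from edgeR). For both genes all treated libraries were above all controls. Of 5 tested carriers of malate, aspartate and dicarboxylates, SLC25A10 rose (0.97, adjusted p = 8.16e-04 from edgeR) and SLC25A13 fell by 0.21 on the log2 scale (adjusted p = 0.0474 from edgeR), so that 20% were called in each direction, against 23.6% and 26.5% of all genes tested. Among 7 genes of related 2-oxo acid dehydrogenases and their regulators, 4 rose (57.1%, against 23.6% of all genes tested) and 1 fell (14.3%, against 26.5%). OGDHL, a paralog of OGDH, rose by 1.73 on the log2 scale at 1.32 CPM on average in DMSO (adjusted p = 8.78e-04 from edgeR), and DBT, the E2 of branched-chain 2-oxo acid dehydrogenase, rose by 0.56 (adjusted p = 0.00147 from edgeR). BCKDHA, the E1α of that complex, fell by 0.33 (adjusted p = 0.0482 from edgeR).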

How the data were processed

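RNA-seq of K562 cells treated with DMSO or FT671 (3 libraries each) was analyzed; 6 ChIP-seq samples were not analysed here. According to the paper's methods, the authors aligned paired-end reads to hg38 with STAR in 2-pass mode and collected counts per gene, and the deposited values are these unnormalized read counts. The STAR version, the annotation and the strand setting are not given in the sources used here. Identifiers were matched to GENCODE release 44 (60295 of 60609 genes; the others held 0.0609% of counts).

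Genes passing filterByExpr (13895) were TMM-normalized and tested with edgeR 4.0.16 (glmQLFit and glmQLFTest, R 4.3.3), with the design of treatment alone and Benjamini-Hochberg adjustment over all genes tested at 0.05 and 1e-05. Standard errors are the log2 fold change divided by the square root of F. Where the replicates are not separate cultures, p-values measure only the spread between these samples. Ratios of isoenzyme pairs within a library used a pseudocount of 0.5 and were tested for pairs with at least 10 counts throughout. The ratios of IDH3B to IDH3G, PDHA1 to PDHB and OGDH to DLST used counts without a pseudocount. Members, gene lists and motifs were chosen with earlier results of these data known. All members were named, and of the related lists the 2 genes of lowest adjusted p in each direction. Alternatives were other size factors, DESeq2 1.42.0, other filters, gene length and GC corrections, a replicate block and leaving out each library. The test across genes was also run on simulated counts. The changes planted there were larger than those of most members, so that it does not show how small changes are recovered.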

Additional observations from a re-analysis of the deposited data

How the results depend on the processing

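Of the 22 members called at 0.05, 15 (13 higher and 2 lower, OGDH and IDH1) kept their call and direction under all 16 alternatives. The other 7 (FH, PDHX, ME2, GLUD1, GOT2, PDP1 and PC) lost the call under at least 1, and none turned its direction. PDP1 had no value with at least 10 counts required in every library. The number of rises was 14 to 20 over the alternatives. Over all genes tested, the share called higher was 23.6% in the main fit. It was 27.6% with the gene length correction, 29% with the GC correction and 9.74% without a filter. With 1 library left out it was 18.4% to 25.7%. The number of falls, 4 in the main fit, was 2 with DESeq2 size factors, the DESeq2 Wald test, the replicate block, the gene length correction with or without the block, and the GC correction with the block, and 2 to 4 when 1 library was left out. Of the 13895 genes tested, 3687 were lower in the main fit, 3570 with DESeq2 size factors and 3121 with the DESeq2 Wald test. This number was 3761 with the block, 3319 with the gene length correction, 3400 with both, and 3716 with the GC correction and block. It was 2972 to 4100 with 1 library left out. At 1e-05, the 2 rises became 6 with the DESeq2 Wald test and with gene length correction and block, 5 without a filter and with the GC correction with or without the block, 4 with the gene length correction, and 1 to 6 with 1 library left out. The 1 fall became 2 with library totals alone, the DESeq2 Wald test, no filter, the block, gene length correction and block, and the GC correction with or without the block, and 0 to 2 with 1 library left out. At 1e-05, shares over all genes are given for the main fit alone. Of the related genes, 17 rises became 11 to 19 with 1 library left out, and the 4 falls became 2 with DESeq2 size factors, the DESeq2 Wald test, no filter and the GC correction, and 1 to 4 with 1 library left out. The median log2 fold change of the members, 0.25, was 0.21 with library totals alone, 0.20 without a filter, 0.36 with the gene length correction with or without the block, 0.29 with the GC correction with or without the block, and 0.24 to 0.29 with 1 library left out. The median over all genes tested was −0.044 with library totals alone and −0.053 without a filter. It was 0.042 with the gene length correction, 0.030 with the GC correction and −0.013 to −0.0054 with 1 library left out.

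The sign turned for CS with the gene length correction (0.050, and 0.048 with the block). For IDH2 it turned with library totals alone (−0.016), without a filter (−0.023) and with the gene length correction (−0.020, and −0.014 with the block), and the range with 1 library left out was −0.064 to 0.058. The ratio of MDH1 to MDH2 ranged from −0.067 to 0.11 with 1 library left out. Without a filter, PDHX (adjusted p = 0.122) and GOT2 (adjusted p = 0.175 from edgeR) also lost the call, as did GOT2 with library totals alone (adjusted p = 0.0515). PDP1 lost it with DESeq2 size factors, the DESeq2 Wald test, no filter and the gene length correction (adjusted p = 0.0518, 0.136, 0.0517 and 0.081). The cause of these changes was not tested.

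Same-numbered libraries had correlations of their deviations of 0.115, −0.061 and 0.14, and not every library correlated best with its own number. Deviations from a mean of 3 libraries depend on each other, so that these values cannot settle whether the numbers mark pairs. The main fit did not use the numbers as pairs. Adding them as a block changed edgeR's common estimate of variation between replicates from 0.0832 to 0.0736. Over all genes tested, 3374 were then higher and 3761 lower, against 3276 and 3687 in the main fit. With the replicate block, 18 members rose and 2 fell, and PDP1 (adjusted p = 0.0597) and PC (adjusted p = 0.0515 from edgeR) did not pass. Of the related genes described, SLC25A13 (adjusted p = 0.0522) and BCKDHA (adjusted p = 0.0785 from edgeR) did not pass with the block. With 3 libraries against 3, no ratio could pass 0.05. The depth of 4555220 counts in the shallowest library limits PDK3, PDK4, ME3 and PDP1 most.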
